A study of Homo sapiens with 8 samples.

Results

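The 10 genes described here encode the COPII coat: SEC23A, SEC23B, SEC24A, SEC24B, SEC24C, SEC24D, SEC13, SEC31A, SAR1A and SAR1B. They were found by gene symbol, 1 row each, among the 28520 rows of each deposited table, and all 10 were among the 12110 rows with a mean of at least 1 FPKM (fragments per transcript kilobase, scaled to all mapped fragments) over the 8 libraries. SEC23A was chosen for a lower level with PDX1 siRNA in each of the 4 lines, so its values in that contrast are given as a description without a test. The other 9 genes were chosen as its partners in the coat.

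RNA was sequenced from 4 cell lines of human pancreatic ductal adenocarcinoma (PDA), all established tumour lines: Panc.8, HPAF-II, Panc.05.04 and Panc.10.05. Cells of each line were transfected with a small interfering RNA (siRNA) against PDX1 or with a control siRNA, and were harvested after 3 days. PDX1 is a homeodomain transcription factor needed to form the pancreas and to keep islet beta cells, and the comparison asked which transcripts differ when it is reduced. Each line gave 1 PDX1 siRNA library and 1 control siRNA library, so the 4 lines are the replicates and no line has a replicate of its own. Nothing else in the labels separates the groups, and neither the siRNA sequences nor the number of cultures behind a library is given.

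COPII is the protein coat that buds vesicles from the endoplasmic reticulum (ER) and so starts the path of newly made proteins to the Golgi. The small GTPases SAR1A and SAR1B, once loaded with GTP, insert into the ER membrane and recruit the inner coat, in which SEC23 activates GTP hydrolysis by SAR1 and SEC24 binds the cargo. The outer cage of SEC13 and SEC31 then polymerises over it. SEC23A and SEC23B are close paralogs. Mutations of SEC23A cause cranio-lenticulo-sutural dysplasia, a disorder of bone and collagen secretion, and mutations of SEC23B cause congenital dyserythropoietic anaemia type II. Secretory epithelia such as the exocrine pancreas depend on this pathway.

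The summed FPKM of a library was 371329 to 428778 with PDX1 siRNA and 378463 to 416226 with control siRNA, and 11186 to 11477 rows against 11218 to 11427 rows reached 1 FPKM. No source used here gives read totals, so the counting error behind a value is unknown. The spacing of the lowest values put the sequencing depth with PDX1 siRNA, relative to control siRNA, at 0.642 in Panc.8, 1.39 in HPAF-II, 0.835 in Panc.05.04 and 0.959 in Panc.10.05, and its part in any result was not tested. PDX1 itself had 0.372, 5.37, 0.416 and 0.0998 FPKM in the PDX1 siRNA libraries of Panc.8, HPAF-II, Panc.05.04 and Panc.10.05, against 0.914, 9.61, 1.41 and 0.188 FPKM in the control siRNA libraries. It was lower in each line, at 29.5% to 55.9% of control. Both values of Panc.10.05 are near the floor, so the reduction in that line is uncertain. The PDX1 row overlaps that of the antisense PDX1-AS1, which had at most 0.391 FPKM in a row of its own. It starts at 27829759 on chromosome 13, while PDX1 starts at 27920000 in RefSeq, so it may hold reads from outside the gene. HPAF-II had the most PDX1 and Panc.10.05 the least under both treatments. All 6 epithelial markers reached 1 FPKM somewhere, but Panc.05.04 stood apart. KRT7 had 0.709 and 0.868 FPKM there, KRT19 0.921 and 1.55 FPKM and CDH1 2.12 and 1.40 FPKM with PDX1 siRNA and control siRNA, while KRT8 had 394 and 305 FPKM and EPCAM 47.2 and 31.96 FPKM. Means of SEC23A are therefore also given without this line. The summed fibroblast markers were 0.631 to 5.07 FPKM with PDX1 siRNA and 0.908 to 5.40 FPKM with control siRNA. The leukocyte gene PTPRC did not exceed 0.0116 FPKM, and CD68, the highest of the leukocyte list, had 8.35 to 75.7 FPKM with PDX1 siRNA and 8.16 to 68.7 FPKM with control siRNA. CD79A of that list had 3.77 and 3.18 FPKM in HPAF-II and 7.39 and 6.15 FPKM in Panc.10.05, with PDX1 siRNA and control siRNA. It had at most 0.340 FPKM in Panc.8 and 0.142 FPKM in Panc.05.04. Endothelial sums were at most 0.809 and 0.760 FPKM, and the 4 acinar and islet genes with a row were listed at 0 in every library. Each line has its own table, possibly scaled on its own, so levels were not tested between lines.

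SEC23A and SEC23B are the SEC23 paralogs, and they went different ways in 3 of the 4 lines. The bases just before their starts are shown as a description, and whether PDX1 acts there was not tested. In RefSeq (GRCh38.p14), the 250 bases before the SEC23A start are chr14:39103236-39103485 on the minus strand, and those before the SEC23B start nearest to the files' row are chr20:18507298-18507547 on the plus strand. Capitals mark the homeodomain core TAAT read on either strand (ATTA on the other).
SEC23A: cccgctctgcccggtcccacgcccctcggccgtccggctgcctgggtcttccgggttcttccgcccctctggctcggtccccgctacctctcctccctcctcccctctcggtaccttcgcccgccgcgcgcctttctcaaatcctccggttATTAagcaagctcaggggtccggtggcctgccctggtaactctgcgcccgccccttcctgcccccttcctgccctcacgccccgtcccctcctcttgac
SEC23B: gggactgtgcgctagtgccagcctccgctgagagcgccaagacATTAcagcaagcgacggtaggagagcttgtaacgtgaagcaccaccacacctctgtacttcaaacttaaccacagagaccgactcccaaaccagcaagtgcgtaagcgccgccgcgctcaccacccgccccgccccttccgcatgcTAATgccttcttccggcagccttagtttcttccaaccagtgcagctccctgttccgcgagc
The SEC23A window held 1 TAAT core, with its first base 99 bases before the start, and the SEC23B window held 2, at 207 and 61 bases before the start. Of 35116 such windows in the promoter table, 47.4% held at least 1 TAAT core on either strand. Neither of these windows held CCAAT (32.01% of all windows, either strand) or TGACG (21.2%, either strand). The SEC23A window had a GC content of 70.0% with 22 CpG and the SEC23B window 59.6% with 18 CpG, against medians of 58.0% and 11 CpG over all windows. The table lists a further SEC23B start downstream, whose window (chr20:18507690-18507939, plus strand) held no TAAT core but 2 CCAAT, at 97 and 52 bases before the start, and 1 TGACG, at 71 bases. A short match of this kind is a description of the letters, not a binding site. Promoter entries were found for 9 of the 10 coat genes, SEC24D being without one, and 5 of their 14 windows held a TAAT core.

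SEC23A, the inner-coat subunit that stimulates SAR1, lies on chromosome 14 between 39031919 and 39103233 of hg38 (row XLOC_007778). It had 28.4, 59.6, 42.6 and 13.2 FPKM in the PDX1 siRNA libraries of Panc.8, HPAF-II, Panc.05.04 and Panc.10.05, against 37.2, 82.3, 77.1 and 21.5 FPKM in the control siRNA libraries of the same lines. The PDX1 siRNA library was the lower one in each line, but the groups overlapped, since the lines differ more from each other than the treatments do. SEC23A stood at 76.2% of control in Panc.8, 72.4% in HPAF-II, 55.2% in Panc.05.04 and 61.2% in Panc.10.05. The log2 ratios of FPKM + 1, PDX1 siRNA over control siRNA, were -0.38, -0.46, -0.84 and -0.67, with a mean of -0.59 ± 0.21 (SD, n = 4 lines). Without Panc.05.04 the mean was -0.50. In RNA from a whole culture, less RNA per cell and fewer cells that express the gene cannot be told apart. Of the 32-base stretches in its annotated transcripts, 9.44% also occur in other annotated genes, SEC23A-AS1 among them, and no source used here says whether counting used strand. A log2 ratio below 0 in all 4 lines was found for 702 of the 12110 rows, or 5.8%, and SEC23A is in that set by choice. A mean at or below that of SEC23A was found for 40 rows, itself included. By size, 5 rows were lower by at least 0.32 on the log2 scale in every line, which were SEC23A, the small nucleolar RNA SNORA63, CD109, DTX2P1-UPK3BP1-PMS2P11 and ANAPC15, and 6 rows were higher by as much in every line. These names were taken after the values were seen. In the authors' deposited table SEC23A had an unadjusted p of 0.257 in Panc.8, 0.054 in HPAF-II, 0.00245 in Panc.05.04 and 0.124 in Panc.10.05. Its q-value in the authors' deposited table was 0.357 in Panc.05.04 and 0.999 or above in the other lines, each comparing 1 library with 1 library.

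**Figure D1:**
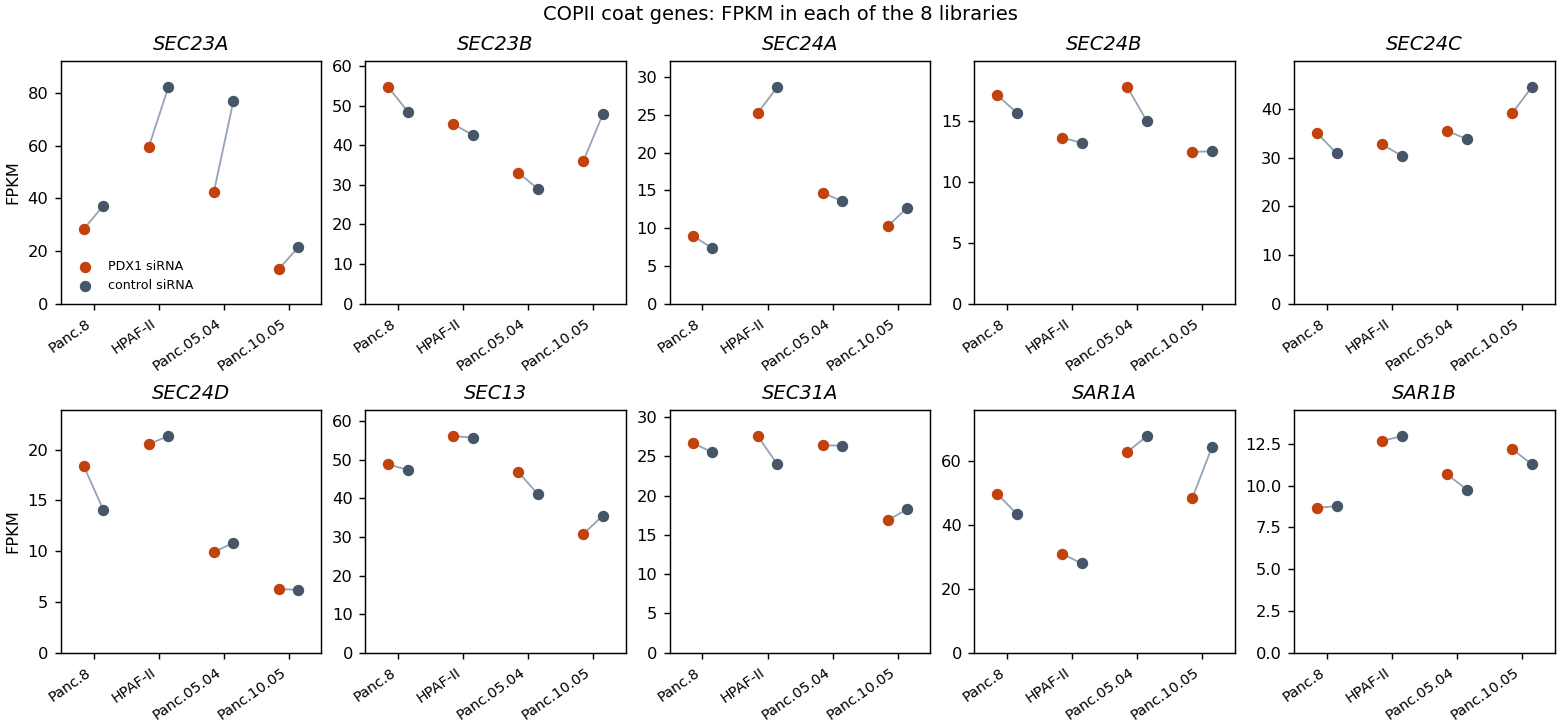
FPKM (y axis, linear, from 0) of the 10 coat genes in each of the 4 lines (x axis), with the PDX1 siRNA library at the left and the control siRNA library at the right of each pair, joined by a line. The points are single libraries without error bars. SEC23A, chosen for a lower level in each line, is the panel in which the left point is the lower one in all 4 lines.

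Among the lines, SEC23A was highest in HPAF-II, followed by Panc.05.04, then Panc.8 and last Panc.10.05, in PDX1 siRNA and in control siRNA libraries alike. The ranges spanned by the 2 libraries of HPAF-II and of Panc.05.04 overlapped, with a log2 difference of 0.09 between their control siRNA libraries. With PDX1 siRNA these lines had 59.6 and 42.6 FPKM. Such a range holds the difference between the treatments and is not a spread of replicates. Panc.05.04 over Panc.8 (1.05 on the log2 scale) and Panc.8 over Panc.10.05 (0.79) were apart in both libraries. The highest line had 4.53 times the FPKM of the lowest with PDX1 siRNA and 3.82 times with control siRNA, where the median over the rows tested that were above 0 in all 4 control siRNA libraries was 2.56 times. These differences between lines were not tested.

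SEC23B, the paralog, lies on chromosome 20 between 18507544 and 18561415. It had 54.7, 45.4, 33.1 and 36.1 FPKM with PDX1 siRNA, against 48.5, 42.6, 29.03 and 47.9 FPKM with control siRNA, in Panc.8, HPAF-II, Panc.05.04 and Panc.10.05. PDX1 siRNA libraries were a little higher in 3 lines, and Panc.10.05 was lower, at 75.3% of control. The mean log2 ratio was 0.01 ± 0.28 (SD, n = 4), with a limma adjusted p of 0.988 over all rows tested. The mean was 0.15 without Panc.10.05 and -0.05 to -0.02 without each of the other lines. SEC23B varied less among the lines than SEC23A, with the highest line at 1.66 times the lowest with PDX1 siRNA and 1.67 times with control siRNA. Its order ran otherwise, from Panc.8 at the top to Panc.05.04 at the bottom in both treatments.

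SEC23A made up 34.1%, 56.8%, 56.3% and 26.7% of the summed SEC23 FPKM in the PDX1 siRNA libraries of Panc.8, HPAF-II, Panc.05.04 and Panc.10.05, against 43.4%, 65.9%, 72.6% and 31.0% in the control siRNA libraries. It was thus the major paralog in HPAF-II and Panc.05.04 and the minor one in Panc.8 and Panc.10.05, under both treatments. The share differed by -9.27, -9.12, -16.4 and -4.25 percentage points, with a mean of -9.75 ± 4.98 points (SD, n = 4), and of -7.54 points without Panc.05.04. The log2 ratio of SEC23A over SEC23B changed by -0.57, -0.56, -1.04 and -0.30, a mean of -0.62 ± 0.31 (SD, n = 4), and by -0.47 without Panc.05.04. It is given without a test because SEC23A was chosen on this contrast. In Panc.10.05 both paralogs were lower, and the change in their ratio was the smallest of the 4.

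The summed SEC23 level was 83.1, 105.0, 75.6 and 49.2 FPKM with PDX1 siRNA, against 85.7, 124.9, 106.1 and 69.4 FPKM with control siRNA. On the log2 scale it differed by -0.04 in Panc.8, -0.25 in HPAF-II, -0.49 in Panc.05.04 and -0.50 in Panc.10.05. The sum was thus nearly equal in both Panc.8 libraries, where SEC23A was lower and SEC23B higher. The summed SEC24 level was 79.6, 92.2, 77.9 and 68.2 FPKM with PDX1 siRNA, against 68.0, 93.7, 73.3 and 76.0 FPKM with control siRNA. The ratio of SEC23 to SEC24 was 1.04, 1.14, 0.970 and 0.722 in the PDX1 siRNA libraries, against 1.26, 1.33, 1.45 and 0.914 in the control siRNA libraries. It was lower with PDX1 siRNA in each line, by a mean of -0.35 ± 0.16 on the log2 scale (SD, n = 4), and SEC23A is part of it. Without Panc.05.04, an alternative chosen after seeing the data, the mean was -0.28.

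**Figure D2:**
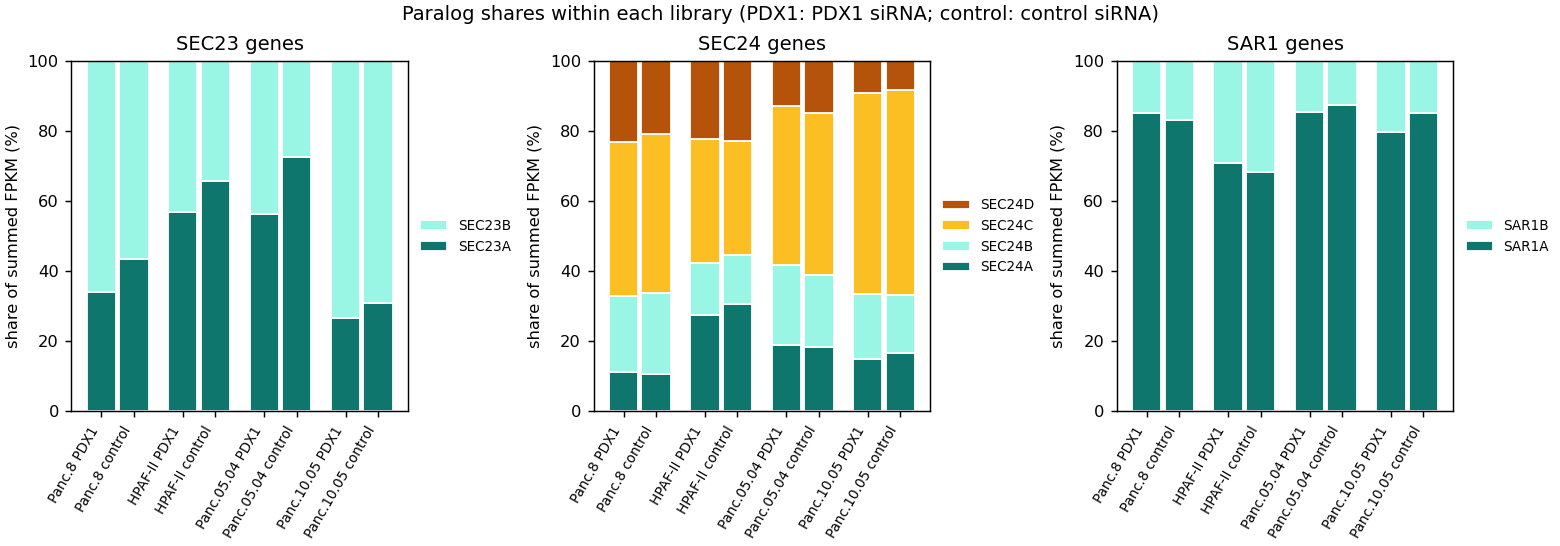
Share of the summed FPKM (y axis, %) taken by each paralog of SEC23, SEC24 and SAR1 in each library, with the PDX1 siRNA bar left of the control siRNA bar of the same line. The SEC23A segment is shorter with PDX1 siRNA in all 4 lines, with differences of -16.4 to -4.25 percentage points. SEC23A was chosen for a lower level in each line, so this was not tested. The SEC24 and SAR1 segments shift in both directions.

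SEC24A to SEC24D are the cargo-binding subunits, which fall into the pairs SEC24A with SEC24B and SEC24C with SEC24D by sequence and cargo. None of them had a ratio of one sign in all 4 lines. SEC24A had 9.005, 25.3, 14.7 and 10.3 FPKM with PDX1 siRNA, against 7.33, 28.7, 13.6 and 12.7 FPKM with control siRNA, in Panc.8, HPAF-II, Panc.05.04 and Panc.10.05. It was higher in Panc.8 and Panc.05.04 and lower in HPAF-II and Panc.10.05, with a mean log2 ratio of -0.02 ± 0.25 (SD, n = 4). SEC24B had 17.2, 13.7, 17.8 and 12.5 FPKM with PDX1 siRNA, against 15.7, 13.2, 15.04 and 12.5 FPKM with control siRNA. It was at 99.7% of control in Panc.10.05 and slightly higher elsewhere, and its mean log2 ratio of 0.10 ± 0.10 (SD, n = 4) was the highest mean of the 9 genes (limma adjusted p = 0.898, unadjusted p = 0.263). Its row overlaps SEC24B-AS1 and MIR576, which had at most 0.613 FPKM, and reads of the antisense gene cannot be told apart from its own unless strand was used.

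SEC24C had 35.1, 32.7, 35.5 and 39.2 FPKM with PDX1 siRNA, against 30.9, 30.4, 33.8 and 44.5 FPKM with control siRNA. It was the most abundant SEC24 gene in every library, at 35.5% to 57.4% of the SEC24 sum with PDX1 siRNA and 32.5% to 58.6% with control siRNA. Of the 32-base stretches in its annotated transcripts 39.7% also occur in other annotated genes, AC022400.8 among them, so its level is uncertain where counting split them. SEC24D had 18.4, 20.6, 9.90 and 6.27 FPKM with PDX1 siRNA, against 14.1, 21.3, 10.8 and 6.19 FPKM with control siRNA. In Panc.8 it was higher by 0.36 on the log2 scale, the highest single ratio among the 9 genes, and in the other lines it lay within -0.12 and 0.02. Its level in HPAF-II, the highest line, was 3.28 times that in Panc.10.05, the lowest, with PDX1 siRNA and 3.45 times with control siRNA.

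Set against the other SEC24 genes of the same library, SEC24A changed by -0.07 ± 0.15, SEC24B by 0.08 ± 0.15, SEC24C by 0.00 ± 0.13 and SEC24D by 0.02 ± 0.22 on the log2 scale (SD, n = 4). An exact permutation test that flips the signs of the 4 lines, two-sided, gave p = 0.5 for SEC24A, 0.375 for SEC24B, and 1 each for SEC24C and SEC24D. With 4 lines this exact test cannot go below p = 0.125, so it could not have passed 0.05 here.

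SEC13 and SEC31A form the outer cage. SEC13 is also a subunit of the nuclear pore. It had 48.9, 56.1, 46.8 and 30.8 FPKM with PDX1 siRNA, against 47.4, 55.8, 41.1 and 35.6 FPKM with control siRNA, in Panc.8, HPAF-II, Panc.05.04 and Panc.10.05. Its mean log2 ratio was 0.01 ± 0.16 (SD, n = 4), and its order over the lines was the same in both treatments. SEC31A had 26.7, 27.6, 26.4 and 16.9 FPKM with PDX1 siRNA, against 25.5, 23.99, 26.4 and 18.3 FPKM with control siRNA. Panc.10.05 was the low line for both genes, and the other 3 lines lay close together for SEC31A. The ratio of SEC13 to SEC31A was 1.77 to 2.04 with PDX1 siRNA and 1.56 to 2.32 with control siRNA.

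SAR1A and SAR1B are the GTPases that start the coat. Mutations of SAR1B cause chylomicron retention disease, in which intestinal cells fail to export lipoproteins. SAR1A had 49.6, 30.9, 62.7 and 48.3 FPKM with PDX1 siRNA, against 43.4, 27.9, 67.6 and 64.1 FPKM with control siRNA, in Panc.8, HPAF-II, Panc.05.04 and Panc.10.05. It was higher in Panc.8 and HPAF-II and lower in the others, most in Panc.10.05 at 75.4% of control, for a mean log2 ratio of -0.04 ± 0.27 (SD, n = 4). SAR1B had 8.67, 12.7, 10.7 and 12.2 FPKM with PDX1 siRNA, against 8.77, 13.0, 9.76 and 11.3 FPKM with control siRNA. Its ratios lay between -0.03 and 0.12, the narrowest spread of the 9 genes. Per transcript length SAR1A was the major form in every library, at 70.9% to 85.5% of the SAR1 sum with PDX1 siRNA and 68.3% to 87.4% with control siRNA. The log2 ratio of SAR1A over SAR1B changed by -0.09 ± 0.35 (SD, n = 4), with an exact sign-flip permutation p of 0.625. Over the 5 paralog ratios tested, all adjusted p-values were 1. SAR1B and SEC24A are neighbours on chromosome 5, with 15.9 kb between their rows, and share some annotated sequence. SEC23A and SEC23B share only 2 of the 32-base stretches of their transcripts, and SAR1A and SAR1B share 0.

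Taking the coat as a whole, of the 9 other genes 0 passed an adjusted p of 0.05 in limma, with the line as a block and adjustment over all 12110 rows, and 0 were below an unadjusted p of 0.05. Of all rows tested, 0% passed the adjusted threshold and 3.63% were below the unadjusted one (2.02% higher and 1.61% lower). The adjusted p of the 9 genes lay between 0.898 and 0.988, and the standard errors of their mean log2 ratios were 0.08 to 0.12. Their means ran from -0.04 to 0.10 with a median of 0.04, against 0.01 over all rows tested. By sign, 7 were higher and 2 lower on average, where 47.3% of all rows were below 0. None of the 9 had one sign in all 4 lines, against 5.8% of all rows lower and 7.45% higher throughout. A p that misses the threshold does not show that these genes were equal in the groups.

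**Figure D3:**
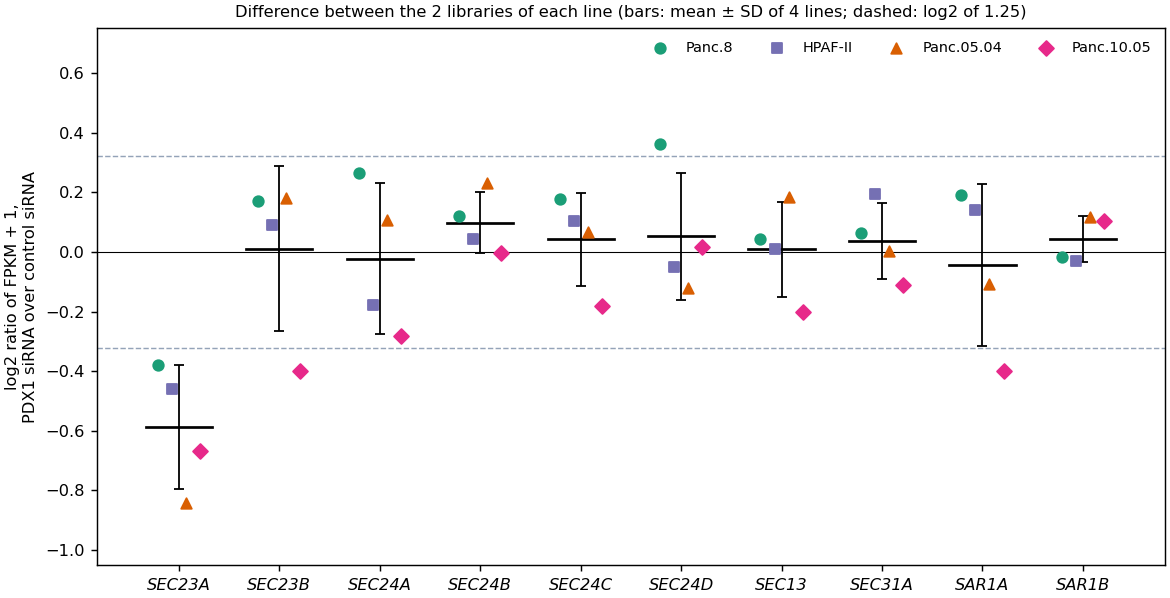
Log2 ratios of FPKM + 1, PDX1 siRNA over control siRNA (y axis), of the 10 coat genes (x axis), with 1 point per line, dashed lines at 0.32 above and below 0, and a bar for the mean and its SD (n = 4 lines). All 4 points of SEC23A, chosen for a lower level in each line, are below 0, between -0.84 and -0.38. The points of each of the other 9 genes lie on both sides of 0.

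The lines differed in which coat genes stood apart. In Panc.8, 8 of the 9 other genes were higher with PDX1 siRNA, with a median log2 ratio of 0.17 against -0.00 over all rows. The highest was SEC24D, the only one higher by at least 0.32 on the log2 scale, a size reached by 8.47% of the rows that had 1 FPKM or more in 1 of the 2 libraries. In HPAF-II, 6 of the 9 were higher, with a median of 0.04 against 0.01 over all rows, and 0 of the 9 reached that size in either direction, against 4% of rows higher and 3.16% lower. In Panc.05.04, 7 of the 9 were higher, with a median of 0.11 against 0.03 over all rows, and again 0 reached that size, against 9.09% of rows higher and 8.62% lower. In Panc.10.05 the picture was the other way round. There 7 of the 9 were lower, with a median of -0.18 against -0.00 over all rows, and SEC23B and SAR1A were lower by at least 0.32, at 75.3% and 75.4% of control. The same size was reached by 21.7% of rows in that line, and 21.6% were as much higher, so 2 of 9 is near the background. SEC24D and SAR1B were the 2 genes not lower in Panc.10.05. Lists of other early secretory genes, described below, had medians in Panc.10.05 of -0.12 for COPI, -0.14 for the translocon and -0.12 for ER stress. The tethers and SNAREs had -0.04, the cargo receptors -0.02 and the ER exit site factors 0.03. SEC23A, chosen on this contrast, was lower by at least 0.32 in each line, beside 7.31%, 3.16%, 8.62% and 21.7% of rows in Panc.8, HPAF-II, Panc.05.04 and Panc.10.05. No coat gene reached 2-fold in any line, where 1.69%, 0.192%, 0.403% and 3.09% of rows were 2-fold higher and 0.197%, 0.166%, 0.639% and 1.71% were 2-fold lower. With 1 library per treatment none of these differences within a line has a replicate check. The authors' deposited table gave 0 of the 40 gene and line comparisons a q-value at or under 0.05, and among the 9 other genes its smallest p was 0.252.

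SEC23A was also set beside its chromosomal neighbours. Of 8 other rows within 500 kb, 6 had a mean of at least 1 FPKM. GEMIN2, which assembles spliceosomal ribonucleoproteins and whose row lies 11.0 kb from that of SEC23A, had a mean log2 ratio of -0.00 ± 0.15 (SD, n = 4). TRAPPC6B, a subunit of the TRAPP complex that tethers vesicles arriving from the ER, has its row 44.6 kb from that of SEC23A. It had 19.3, 23.8, 10.1 and 7.49 FPKM with PDX1 siRNA, against 15.1, 18.9, 8.29 and 6.17 FPKM with control siRNA, in Panc.8, HPAF-II, Panc.05.04 and Panc.10.05. It was higher in each line, with log2 ratios of 0.34, 0.31, 0.26 and 0.24 and a mean of 0.29 ± 0.04 (SD, n = 4), opposite in sign to SEC23A. Its limma p was 0.00791 unadjusted and 0.898 adjusted over all rows. PNN, a splicing-associated protein, had a mean of -0.08 ± 0.20, and FBXO33, an F-box protein, -0.00 ± 0.09. MIA2, a cargo export factor of the ER, had 0.07 ± 0.05 and was listed at 0 in both Panc.05.04 libraries. With PDX1 siRNA and control siRNA it had 20.8 and 19.5 FPKM in HPAF-II and 1.43 and 1.28 FPKM in Panc.10.05. In Panc.8 it had 0.121 and 0.0496 FPKM. The ratios in Panc.8 and Panc.05.04 are made small by the pseudocount. CTAGE5, which acts at ER exit sites and whose row has the same coordinates as that of LOC100288846, had 0.21 ± 0.38 with a log2 ratio of 0.72 in Panc.10.05 (SD, n = 4 each).

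**Figure D4:**
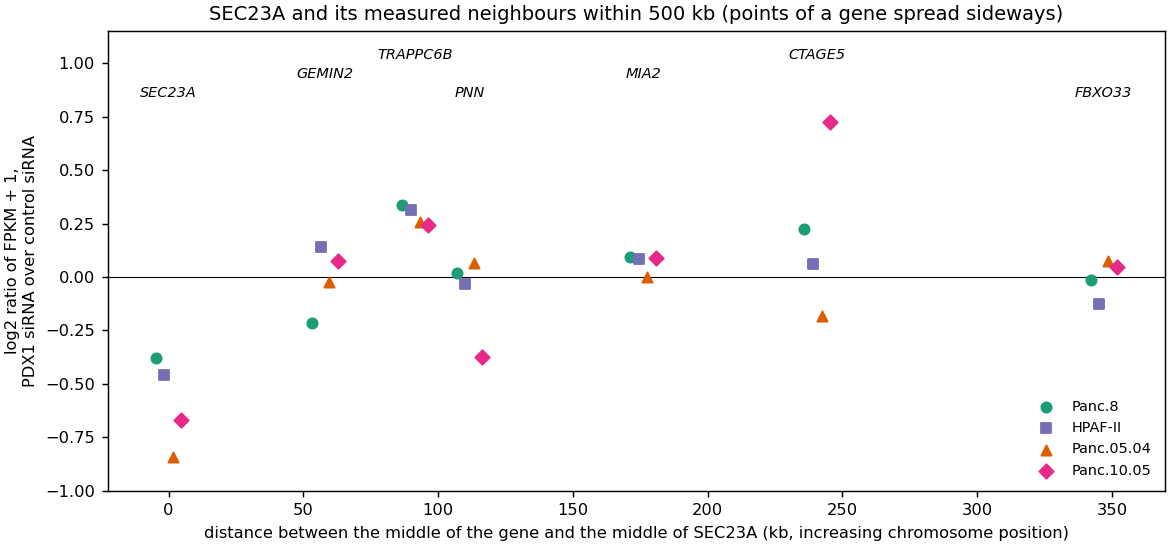
Log2 ratios of FPKM + 1, PDX1 siRNA over control siRNA (y axis), of SEC23A and the rows tested within 500 kb of it, placed by the distance between gene midpoints (x axis, kb), with 1 point per line and the points of a gene spread sideways so that each is seen. SEC23A, chosen for a lower level in each line, lies below 0 in all 4 lines. TRAPPC6B lies above 0 in all 4, between 0.24 and 0.34.

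The genes whose level followed SEC23A most closely over the 8 libraries were NECAP2, an adaptor of endocytic trafficking, with a Pearson r of 0.965, CDC42BPB, a kinase that acts downstream of CDC42, with 0.957, and EHBP1L1, a Rab8 effector, with 0.951. DLGAP4 followed with 0.949 and ADAMTSL5 with 0.946, from 8190 protein-coding genes with a mean of at least 5 FPKM. Of the coat, SEC13 had an r of 0.758, SEC31A 0.752, SEC24D 0.682 and SEC24A 0.633, SEC24B 0.22 and SAR1B 0.0869. SEC23B had -0.248, SAR1A -0.354 and SEC24C -0.736. SEC13, the nearest in the coat, ranked 441 among the 8190. These r values describe 8 libraries from 4 lines, with the libraries of a line sharing their cells and table, and are given without a p. They mostly follow the order of the lines: NECAP2 had 25.9, 42.8, 35.7 and 15.8 FPKM with PDX1 siRNA, against 26.5, 43.8, 40.1 and 18.1 FPKM with control siRNA, and its log2 ratios were -0.19 to -0.03.

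Other genes of the early secretory pathway were taken as 6 lists, of which 127 of 134 genes were tested. None passed an adjusted p of 0.05 in limma (smallest adjusted p = 0.898), and 0 had a mean log2 ratio as low as that of SEC23A. SEC23A was chosen for being lower on this contrast, so its place below them is a description and not a test. The means ran from -0.22 to 0.45, the list medians from -0.05 to 0.04, against 0.01 over all rows. Counts of higher and lower genes are given below by list and were not tested. Over all rows tested, 47.3% had a mean below 0. Of the 127, 6 were lower in all 4 lines (4.72%, against 5.8% of all rows) and 9 were higher in all 4 (7.09%, against 7.45%), which is near the background.

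Of 15 tested assembly factors of ER exit sites, 9 were higher and 6 lower on average. At the low end were SEC23IP, which binds SEC23, with a mean log2 ratio of -0.12 ± 0.22, and SCFD1, which acts with the SNARE syntaxin 5, with -0.10 ± 0.18. At the high end were SEC16B, a scaffold of ER exit sites, with 0.45 ± 0.49, and TECPR2, which helps to maintain ER exit sites, with 0.44 ± 0.13 (SD, n = 4 each). TECPR2 had 4.45, 5.51, 2.07 and 2.21 FPKM with PDX1 siRNA, against 2.52, 4.06, 1.33 and 1.48 FPKM with control siRNA, higher in each line. SEC16B ratios differed widely, with 1.09 in Panc.8 and -0.01 in Panc.05.04, where it had 0.110 and 0.116 FPKM.

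Of 25 tested cargo receptors, 12 were higher and 13 lower on average. BCAP29 and BCAP31, chaperones that escort membrane proteins out of the ER, had means of -0.16 ± 0.18 and -0.15 ± 0.15, and the p24 family proteins TMED4 and TMED1 had 0.11 ± 0.21 and 0.13 ± 0.24 (SD, n = 4 each). Of 28 tested tethers and SNAREs, 20 were higher and 8 lower, beside 47.3% of all rows tested that were below 0. The SNAREs YKT6 and GOSR2 had -0.13 ± 0.28 and -0.12 ± 0.35, while TRAPPC6B and BLZF1, a golgin of the Golgi matrix, had 0.29 ± 0.04 and 0.36 ± 0.57 (SD, n = 4 each). BLZF1 reached its mean through Panc.8, with 21.5 FPKM with PDX1 siRNA against 8.98 FPKM with control siRNA.

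COPI is the coat of the return path from the Golgi to the ER. Of its 16 tested genes, 7 were higher and 9 lower on average. The coat subunit COPZ2 had -0.13 ± 0.11, the GTPase ARF5 -0.12 ± 0.10, the coat subunit COPB1 0.09 ± 0.03 and ARFGAP3, which activates GTP hydrolysis by ARF, 0.19 ± 0.22 (SD, n = 4 each). COPZ2 had 0.0654 FPKM with PDX1 siRNA and 0.0932 FPKM with control siRNA in HPAF-II, and 0.202 and 0.325 FPKM in Panc.10.05. Its ratios in these lines are made small by the pseudocount. COPB1 was higher in each line by 0.05 to 0.12. The translocon list also held the SEC-named genes outside the coat, and 10 of its 24 genes were higher and 14 lower. SRP9 of the signal recognition particle had -0.22 ± 0.13 and was lower in all 4 lines, the signal peptidase subunit SPCS2 had -0.19 ± 0.26, and SSR1 and the receptor subunit SRPRB had 0.07 ± 0.15 and 0.08 ± 0.20 (SD, n = 4 each). SRP9 had 115, 109, 94.2 and 128 FPKM with PDX1 siRNA, against 134, 122, 100.03 and 168 FPKM with control siRNA.

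Of 19 tested ER stress factors and chaperones, 9 were higher and 10 lower. SEL1L, an adaptor of ER-associated degradation, had -0.16 ± 0.09 and the chaperone HSP90B1 -0.14 ± 0.26, while DDIT3, the stress-induced transcription factor CHOP, had 0.26 ± 0.25 and the transcription factor CREB3L4 0.35 ± 0.53 (SD, n = 4 each). SEL1L was lower in all 4 lines by 0.04 to 0.25, and DDIT3 was higher in 3 of 4. The list medians in single lines were 0.13 in Panc.8, 0.03 in HPAF-II, -0.13 in Panc.05.04 and -0.12 in Panc.10.05.

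**Figure D5:**
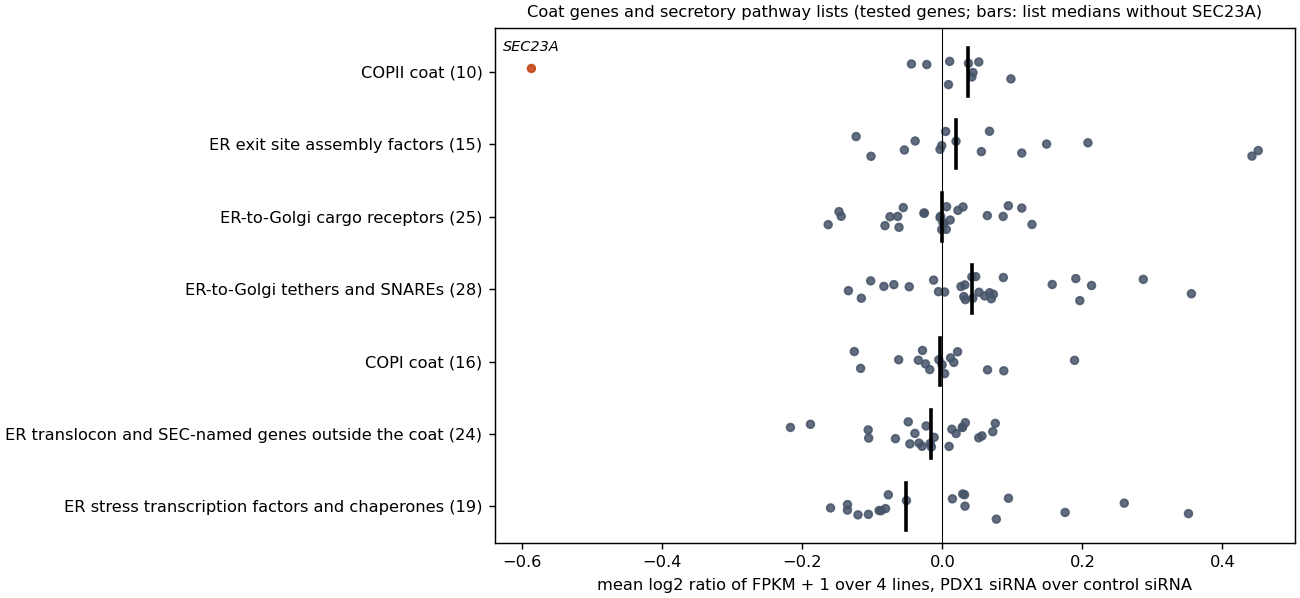
Mean log2 ratio of FPKM + 1, PDX1 siRNA over control siRNA (x axis), of each tested gene of the coat and of the 6 lists, with 1 point per gene and a mark for the list median. SEC23A at -0.59 lies below every gene of the 6 lists, whose lowest is SRP9 at -0.22. SEC23A was chosen for being lower on this contrast, so its place is a description and not a test.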

How the data were processed

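The submitters' processing notes name the tools Cuffdiff, Cufflinks and TopHat2 (version 2) and the genome build hg38. What each tool did, and the annotation, is not given in the sources used here. Per the file headers, the authors deposited 1 Cuffdiff table per line, with an FPKM value per gene for each of the 2 libraries, a test status, a p-value and a q-value. The p-values and q-values of the authors compare 2 libraries, not conditions. No count model was used, as FPKM is not a count.

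The coat genes and the gene lists were chosen with earlier results of these data known. Log2 ratios of genes are differences of log2(FPKM + 1), so changes of low genes come out too small, while paralog ratios, shares and sums use FPKM with no pseudocount. Rows with a mean FPKM of at least 1 were fitted with limma 3.58.1 (R 4.3.3), blocked by cell line, with a trended eBayes step and Benjamini-Hochberg adjustment over all 12110 rows. The fit had 3 residual and 2.94 prior degrees of freedom, and was tested on simulated data. The pairing comes from the labels, which name the line of each library, and deviations from the group means correlated between the libraries of a line (r = 0.844 to 0.963). P-values rest on how the PDX1 siRNA over control siRNA ratios spread among the 4 lines. In limma the eBayes step draws part of that spread from all rows. Paralog ratios were tested with an exact permutation test of the 16 sign patterns, two-sided, whose smallest p is 0.125.

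Within a line differences of at least 0.32 or 1 on the log2 scale were counted, with no test, over rows that reached 1 FPKM in 1 library or both. Named genes were the 10 coat genes, PDX1, the 2 highest and 2 lowest tested genes of each list, the tested rows within 500 kb of SEC23A and the 5 genes most correlated with it. Starts in the files were read as counted from 0, since 6173 of 21696 rows compared with RefSeq were 1 lower and 585 equal, and 1 was added. Promoter windows came from RefSeq (GRCh38.p14) and shared 32-base stretches from GENCODE transcripts. No pair of libraries shared more than 0.0106% of its values above 1 FPKM. Alternatives were other pseudocounts, no filter or a stricter filter on low values, a median log2 ratio of 0 set in each line, no block and leaving out each line. Python 3.11.15, numpy 2.4.6, pandas 2.3.3 and matplotlib 3.10.9 served for all else.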

Additional observations from a re-analysis of the deposited data

Results flagged for a closer look

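In 6 of the 65 sets of 4 values examined, 1 line stood far from the other 3, with the gap to its nearest neighbour divided by the whole range above Dixon's critical value for 4 values. The SEC23B log2 ratio was set apart in Panc.10.05 (gap over range 0.842), with -0.40 there and 0.09 to 0.18 in the other lines. SEC31A FPKM with PDX1 siRNA was set apart in the same line (0.892), with 16.9 FPKM against 26.4 to 27.6 FPKM elsewhere. The change of SEC24C over the other SEC24 genes was set apart in HPAF-II (0.840). The log2 ratio of TECPR2 was set apart in Panc.8 (0.860), with 0.63 there and 0.36 to 0.40 in the other lines. The ratio of TMED4 was set apart in Panc.10.05 (0.837), with 0.42 there and -0.04 to 0.04 elsewhere. The ratio of MIA2 was set apart in Panc.05.04 (0.899), where both libraries were listed at 0 FPKM and the ratio of 0 is set by the pseudocount. Some sets of 4 pass this limit by chance, and no cause was tested.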

How the results depend on the processing

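Of 250 alternative values, 229 kept the sign of the value reported and 21 did not, and no value passed or lost a test threshold. Part of this was fixed beforehand. Counts are among the 250 and cannot change sign, and the filter and the block leave the mean of a gene as it is. The sign-flip test could not pass 0.05 under any setting. SEC23A had a mean log2 ratio of -0.60 with a pseudocount of 0.1 and of -0.66 to -0.50 when a line was left out. It was chosen for being lower in all 4 lines, so neither setting could change its sign. Leaving out the line as a block (no use of the pairing) cannot change a mean, since each line has 1 library per treatment. With that setting 0 of all rows passed. All 21 changes of sign came from leaving out a line, 15 in gene means or paralog ratios and 6 in list medians. The means then ranged from -0.047 to 0.15 for SEC23B, -0.12 to 0.065 for SEC24A, -0.0035 to 0.12 for SEC24C, -0.051 to 0.11 for SEC24D, -0.049 to 0.079 for SEC13, -0.015 to 0.087 for SEC31A and -0.12 to 0.075 for SAR1A. Paralog changes ranged from -0.19 to 0.051 for SAR1A over SAR1B, -0.062 to 0.030 for SEC24C and -0.035 to 0.12 for SEC24D over the other SEC24 genes. The number of rows lower in every line, 702 with 4 lines, was 1052 to 1734 with 3, since fewer lines had to share a sign. The median of the ER exit site list was 0.04 with no filter on low values, since more genes enter. The median of the 9 other coat genes was -0.0035 without Panc.8 and 0.079 without Panc.10.05. Depth is unknown, so the counting error of low genes such as PDX1 could not be given.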
